A study of Gallus gallus with 6 samples.

Results

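The genes described here encode ligands, receptors, a co-receptor and SMAD proteins of the BMP, TGF-beta and Nodal pathways. Of 10 genes named for the set, 9 were rows of the deposited count table of 6789 gene symbols: BMP2, BMP4, TGFB2, CFC1, BMPR1A, BMPR1B, ACVR2B, SMAD1 and SMAD5. BMP7 was not analysed here. All 9 passed the filter on low counts, as did 5041 genes in all. The treated group was Hes5.3+ chick retinal cells from whole embryonic day 5 retinas kept in culture for 8 h in the presence of retinoic acid (RA) at 2.5 µM, the vitamin A derivative that acts through nuclear receptors. The control group was Hes5.3+ cells from the opposite eyes of the same embryos, cultured for as long with DMSO, the solvent. Each group had 3 libraries, each made from retinas of different embryos, and the libraries formed 3 pairs, numbered 1, 3 and 4. Both groups shared the serum-containing medium, the trypsin dissociation, the cell sort and the amplification of cDNA. How Hes5.3+ cells were marked for the sort is not given in the labels used here.

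BMPs bind a complex of type I and type II receptor kinases, which phosphorylate SMAD1, SMAD5 and SMAD9, and these enter the nucleus with SMAD4. TGF-beta, activin and Nodal ligands signal through other type I receptors to SMAD2 and SMAD3, and Nodal also needs a membrane-anchored co-receptor of the EGF-CFC family, to which CFC1 belongs. In the early vertebrate eye BMP4 is known as a dorsal signal that acts against ventral fates, and RA is known as another signal in the patterning of this tissue.

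The total count per library lay between 19808063 and 27235633, and levels are given as CPM, the read counts of a gene scaled to a common depth. CYP26A1, the RA-degrading enzyme that RA induces, served as the check of the treatment. It had 2942, 2286 and 3902 CPM in the RA libraries of pairs 1, 3 and 4, against 81.1, 73.5 and 86.1 CPM in the control libraries. Retinal progenitor markers were present, with 11 of 12 listed genes in the table, and they summed to 9749 to 11254 CPM in the RA libraries and 8950 to 9955 CPM in the control libraries. Of these 11, NR2E1 was called, with a log2 fold change of 0.39 (edgeR adjusted p = 0.00386), higher in 3 of 3 pairs. Over all genes tested, 1.07% were called. At an unadjusted p under 0.05, reached by 8.89% of all genes, SIX6 and HES5 were also higher (log2 fold changes 0.22 and 0.27). PAX6 was lower at that threshold (-0.14), in 3 of 3 pairs and without overlap of the groups. Of the 11, NR2E1 and CCND1 also had groups that did not overlap, with RA higher, as 7.48% of all genes did in either direction. The labels do not say whether the HES5 row is the Hes5.3 gene of the sort. Neurogenic progenitor markers summed to 922, 772 and 869 CPM in the RA libraries of pairs 1, 3 and 4, against 851, 716 and 783 CPM in the control libraries, higher with RA in 3 of 3 pairs. Of 7 such markers tested, 0 were called, and NEUROG2, DLL1, NEUROD1 and NEUROD4 were higher at an unadjusted p under 0.05. Ganglion cell markers summed to 994 to 1138 CPM with RA and 1024 to 1087 CPM in controls. Of 9 tested, 0 were called, against 1.07% of all genes. At an unadjusted p under 0.05 ELAVL4 was lower (log2 fold change -0.28) and ISL1 higher (1.75, on 0 to 54 counts per library). Markers of neighbouring tissues were low. Lens markers summed to 59.2 to 84.5 CPM with RA and 56.1 to 64.9 CPM in controls, and mesenchyme markers to 16.4 to 27.4 CPM with RA and 19.6 to 27.2 CPM in controls. Of 5 lens markers tested, 0 were called, against 1.07% of all genes, and 1, ASL1, had an unadjusted p under 0.05. ASL1 was higher with RA in 3 of 3 pairs, with overlap of the groups (log2 fold change 0.57, edgeR adjusted p = 0.181). Blood and endothelial markers summed to 1.76 to 9.79 CPM with RA and 2.15 to 5.52 CPM in controls. Pigment epithelium markers summed to 46.6 to 51.3 CPM with RA and 40.5 to 46.3 CPM in controls, with TTR at 0 in every library. DCN among the mesenchyme markers and HBM and GATA1 among the blood markers were also at 0. The part of these cells and markers in the results below was not tested. In such bulk samples fewer cells of a type and less RNA per cell cannot be told apart.

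BMPR1B rose with RA, and it was the member gene that passed the test over all genes. BMP2 and BMPR1A were higher and CFC1 and SMAD1 lower with RA in 3 of 3 pairs, without passing the test. BMP4, TGFB2, ACVR2B and SMAD5 had unadjusted p-values above 0.05. The test was edgeR's quasi-likelihood test with the embryo pair as a block, and p-values were adjusted by Benjamini-Hochberg over the 5041 genes. It called 1 of 9 members, higher with RA, where 1.07% of all genes tested were called, 0.952% of those tested being higher. The same direction in all 3 pairs was seen for 3 of 9 members higher and 3 of 9 lower, where 15.8% of all genes were higher and 14.4% lower in the 3 pairs, 30.2% together. Groups that did not overlap, with RA higher, were seen for 2 of 9 members and 4.42% of all genes. An unadjusted p under 0.05 was reached by 5 of 9 members, against 8.89% of all genes. The median log2 fold change over the 9 members was -0.11, and over all genes tested it was -0.01. The median size of the log2 fold change, whatever its sign, was 0.22 over the members and 0.09 over all genes. The members, and the lists below, were chosen with earlier results of these data known. Comparisons of these sets with all genes, here and below, are therefore descriptions and not tests of the sets.

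**Figure D1:**
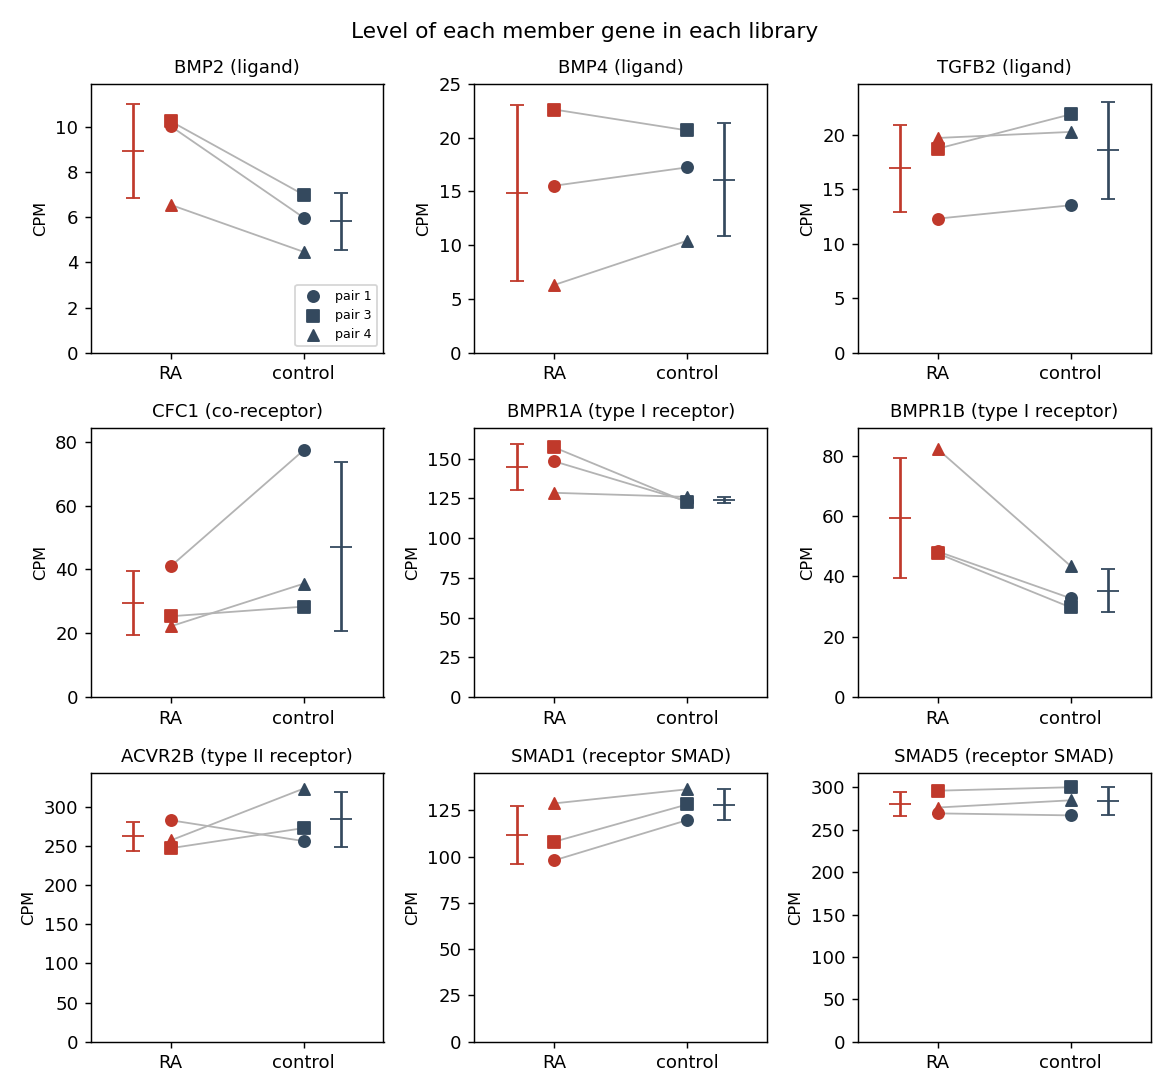
Level of each of the 9 member genes in CPM (y axis, from 0), with the RA libraries on the left and the control libraries on the right of each panel; grey lines join the 2 libraries of an embryo pair, and bars show the mean ± SD of 3 libraries. The 3 RA values of BMPR1B (47.6 to 82.2 CPM) lie above the 3 control values (29.7 to 43.4 CPM), while CFC1 was highest in the control library of pair 1, at 77.3 CPM.

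Of the 3 receptors among the members, 1 passed the test. BMPR1B, a type I receptor for BMP and GDF ligands also known as ALK6, had 48.3, 47.6 and 82.2 CPM in the RA libraries of pairs 1, 3 and 4, against 32.8, 29.7 and 43.4 CPM in the control libraries. The groups did not overlap, which 7.48% of all genes tested also showed in one direction or the other, and pair 4 was highest in each group. The mean was 59.4 ± 19.8 CPM with RA and 35.3 ± 7.20 CPM in controls (SD, n = 3 each). The rise was 1.65-fold, with a 95% interval of 1.39 to 1.96. On the log2 scale it was 0.72 with a standard error of 0.12 (edgeR adjusted p = 0.00386), and the pair values were 0.56, 0.68 and 0.92. BMPR1B stood at rank 25 of the 5041 genes by p-value. Its call held when any 1 pair was left out, with edgeR adjusted p-values from 0.00115 to 0.033. It was lost when the pair block was dropped, where the log2 fold change was 0.75, the unadjusted p 0.00913 and the edgeR adjusted p 1.00.

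BMPR1A, the type I receptor also known as ALK3, is the close relative of BMPR1B. It had 148, 157 and 129 CPM in the RA libraries of pairs 1, 3 and 4, against 123, 123 and 126 CPM in the control libraries. The groups did not overlap, although in pair 4 the RA library exceeded its control by only 0.03 on the log2 scale. The log2 fold change was 0.22 (SE 0.09, 95% interval 0.03 to 0.41), with an unadjusted p of 0.0257 and an edgeR adjusted p of 0.461. ACVR2B, a type II receptor for activins, Nodal and some BMPs, had 283, 247 and 257 CPM with RA, against 257, 273 and 324 CPM in controls. Its groups overlapped and the pairs went both ways. The log2 fold change of ACVR2B was -0.11 with a 95% interval of -0.29 to 0.07 (edgeR adjusted p = 0.778). The pair 4 value, -0.33, lay outside that interval. Without pair 1 the log2 fold change was -0.24, and without pair 4 it was 0.0083.

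CFC1, the EGF-CFC co-receptor through which Nodal and related GDF ligands signal, had 41.0, 25.3 and 22.2 CPM in the RA libraries of pairs 1, 3 and 4, against 77.3, 28.4 and 35.5 CPM in the control libraries. The RA library was below its control in 3 of 3 pairs, but the groups overlapped because pair 1 was high in both. The control library of pair 1 was also the one with the fewest sorted cells and the least RNA (57000 cells and 52.8 ng), and the part of this in the CFC1 values was not tested. The mean was 29.5 ± 10.1 CPM with RA and 47.1 ± 26.5 CPM in controls (SD, n = 3 each). The log2 fold change was -0.60 (SE 0.15, 95% interval -0.91 to -0.29), with an unadjusted p of 0.000967 and an edgeR adjusted p of 0.0761. The pair values were -0.92, -0.16 and -0.68 on the log2 scale, so pair 3 showed the smallest difference. Which side of the threshold CFC1 fell on depended on the method, since limma-voom gave an adjusted p of 0.0359 and DESeq2 one of 0.029, both with the pair block. Without pair 3 the log2 fold change was -0.80 (edgeR adjusted p = 0.00829), and without pair 1 it was -0.43 (0.371). Over 11 alternatives the adjusted p of CFC1 lay between 0.00829 and 1.00, the highest without the pair block.

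Among the ligands, BMP2 had 10.0, 10.3 and 6.55 CPM in the RA libraries of pairs 1, 3 and 4, against 5.98, 7.00 and 4.47 CPM in the control libraries. Each RA library was above its own control, while the groups overlapped because the RA library of pair 4 lay below the control library of pair 3. BMP2 rested on 118 to 280 counts per library, the fewest of the 9 members. Its log2 fold change was 0.62 with a wide 95% interval of 0.08 to 1.16 (SE 0.25, unadjusted p 0.0276, edgeR adjusted p = 0.469).

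BMP4, the closest relative of BMP2 and the dorsal ligand of the early eye, had 15.5, 22.6 and 6.29 CPM in the RA libraries of pairs 1, 3 and 4, against 17.2, 20.7 and 10.4 CPM in the control libraries. The difference between pairs was larger than that between treatments. The log2 fold change was -0.23 with a 95% interval of -0.65 to 0.19 (edgeR adjusted p = 0.809), and it was -0.43 without pair 3 and -0.0024 without pair 4. TGFB2, a TGF-beta isoform, had 12.3, 18.7 and 19.7 CPM with RA, against 13.5, 21.9 and 20.2 CPM in controls. It was lower in 3 of 3 pairs, by 0.14, 0.22 and 0.04 on the log2 scale. The fitted log2 fold change of TGFB2 was -0.13 with a 95% interval of -0.48 to 0.22 (edgeR adjusted p = 0.874).

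SMAD1 and SMAD5 are the receptor-activated SMADs of the BMP branch. SMAD1 had 98.0, 108 and 129 CPM in the RA libraries of pairs 1, 3 and 4, against 119.7, 128 and 136 CPM in the control libraries. It was lower in 3 of 3 pairs, by 0.29, 0.25 and 0.08 on the log2 scale, and the groups overlapped through the RA library of pair 4. The log2 fold change was -0.21 (SE 0.09, 95% interval -0.39 to -0.02, unadjusted p 0.0299, edgeR adjusted p = 0.473). SMAD5 had 269, 296 and 276 CPM with RA, against 267, 300.3 and 285 CPM in controls. SMAD5 had a log2 fold change of -0.02 with a 95% interval of -0.16 to 0.13 (edgeR adjusted p = 0.978), the narrowest interval of the 9 members.

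In the authors' deposited table the 9 members had the same directions as above, and none passed an adjusted p of 0.05, which 12 of its 4752 genes did. The authors' deposited table gives BMPR1B a log2 fold change of 0.73 with a p-value of 0.00215 and an adjusted p of 0.283. For CFC1 the authors' deposited table gives -0.62, a p-value of 0.00865 and an adjusted p of 0.661. These values rest on the same libraries.

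The members include related genes in the same role, and a ratio of their counts within a library does not depend on the scaling between libraries. These ratios were chosen after the values had been seen and are given without a test. The ratio of BMP4 to BMP2 counts was 1.55, 2.21 and 0.961 in the RA libraries of pairs 1, 3 and 4, against 2.88, 2.95 and 2.33 in the control libraries. Every RA value lay below every control value. The ratio of BMPR1B to BMPR1A counts was 0.325, 0.303 and 0.639 with RA, against 0.266, 0.242 and 0.345 in controls. It was higher with RA in 3 of 3 pairs, most in pair 4, by 0.89 on the log2 scale, and the groups overlapped through the control library of pair 4. The ratio of SMAD1 to SMAD5 counts was 0.364, 0.365 and 0.466 with RA, against 0.448, 0.427 and 0.479 in controls. This ratio was lower with RA in 3 of 3 pairs, least in pair 4, by 0.04 on the log2 scale. Its groups overlapped through the RA library of pair 4.

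**Figure D2:**
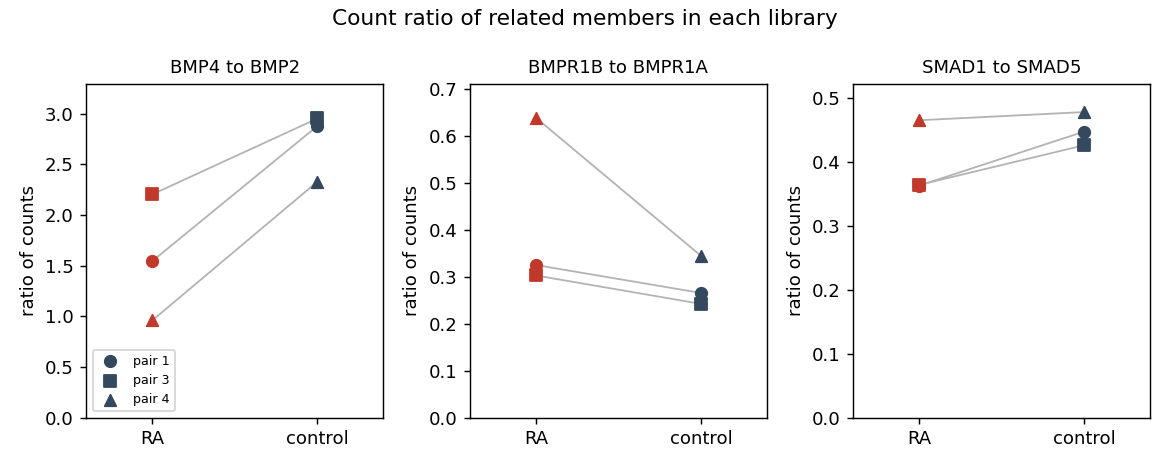
Ratio of counts between related members (y axis, from 0) in each RA library (left) and control library (right), with grey lines joining the libraries of an embryo pair. The BMP4 to BMP2 ratio is 0.961 to 2.21 with RA and 2.33 to 2.95 in controls; the BMPR1B to BMPR1A ratio of pair 4 is 0.639 with RA and 0.345 in the control.

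A wider list of pathway genes was read from the same fit: other ligands, receptors, SMADs with their cofactors, and secreted regulators. Of 90 listed genes, 52 were in the table and 33 passed the filter. Of these 1 rose and 0 fell at an adjusted p under 0.05, where 1.07% of all genes tested were called and 0.952% were called higher. At an unadjusted p under 0.05 there were 6 higher and 0 lower, against 5.73% and 3.15% of all genes tested. The median log2 fold change of the 33 was 0.07. The gene that rose was BAMBI, a pseudoreceptor that resembles type I receptors but lacks the kinase and damps BMP and TGF-beta signalling. BAMBI had 669, 583 and 808 CPM in the RA libraries of pairs 1, 3 and 4, against 428, 452 and 512 CPM in the control libraries. The groups did not overlap. Its rise was 1.47-fold with a 95% interval of 1.32 to 1.64, or 0.56 on the log2 scale with a standard error of 0.07 (edgeR adjusted p = 0.000707). Without the pair block the log2 fold change of BAMBI was 0.57 and its edgeR adjusted p 0.29, while the call held in the other 10 alternatives.

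Among the other receptors, 6 of 7 tested had positive log2 fold changes, as did 2424 of all 5041 genes tested, and 0 passed the adjusted threshold, against 1.07% of all genes. BMPR2, the main type II receptor for BMPs, had 63.1, 57.3 and 64.0 CPM with RA, against 37.7, 50.5 and 63.3 CPM in controls. BMPR2 had a log2 fold change of 0.31 (SE 0.13, edgeR adjusted p = 0.484). The difference was mostly in pair 1, since the pair values were 0.74, 0.18 and 0.02 on the log2 scale, and the log2 fold change was 0.096 without pair 1 and 0.47 without pair 4. ACVR2A, an activin and BMP type II receptor, had 183, 175 and 233 CPM with RA, against 142, 181 and 186 CPM in controls. For ACVR2A the log2 fold change was 0.22 (SE 0.09, edgeR adjusted p = 0.461), and pair 3 went the other way. It was 0.14 without pair 1 and 0.35 without pair 3. TGFBR1, the TGF-beta type I receptor, had a log2 fold change of 0.02 with a 95% interval of -0.13 to 0.17.

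Among the other ligands, 6 were tested, and NODAL was not one of them. GDF5, a ligand known to prefer BMPR1B, had 1.68, 3.13 and 1.84 CPM in the RA libraries of pairs 1, 3 and 4, against 0.59, 2.44 and 0.341 CPM in the control libraries. It was higher in 3 of 3 pairs, but it rested on 9 to 61 counts per library and the groups overlapped through pair 3. For GDF5 the log2 fold change was 1.35 with a 95% interval of 0.10 to 2.60 (SE 0.59, edgeR adjusted p = 0.516), and it was 0.89 without pair 4. TGFB3, the other TGF-beta isoform tested, had a log2 fold change of 0.05 with a 95% interval of -0.10 to 0.21.

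Among SMADs and cofactors, ZEB1, a zinc finger repressor that binds SMADs, had 222, 219 and 188 CPM with RA, against 184, 191 and 152 CPM in controls. It was higher in 3 of 3 pairs, with a log2 fold change of 0.26 (SE 0.07, edgeR adjusted p = 0.164). Its relative ZEB2 had a log2 fold change of -0.12 with a 95% interval of -0.30 to 0.05. Inhibitory SMAD6, which is both a brake on the pathway and one of its targets, had a log2 fold change of 0.25 with a 95% interval of -0.02 to 0.52.

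Of the secreted and membrane regulators, 9 of 31 listed genes were tested. CRIM1, a transmembrane protein that binds BMPs, had 95.9, 141 and 138 CPM with RA, against 77.0, 120.5 and 128 CPM in controls, with a log2 fold change of 0.22 (SE 0.09, edgeR adjusted p = 0.455). CHRDL1, the BMP antagonist also known as ventroptin in chick, where it is a ventral factor of the retina, had 673, 663 and 671 CPM with RA, against 666, 711 and 625 CPM in controls. Its log2 fold change was 0.01 with a 95% interval of -0.14 to 0.15. The classical antagonists Noggin, Chordin, Follistatin and Gremlin did not pass the filter: the counts per library were 0 to 6 for NOG, 1 to 21 for CHRD, 0 to 6 for FST and 0 to 5 for GREM1, too few to compare the groups.

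**Figure D3:**
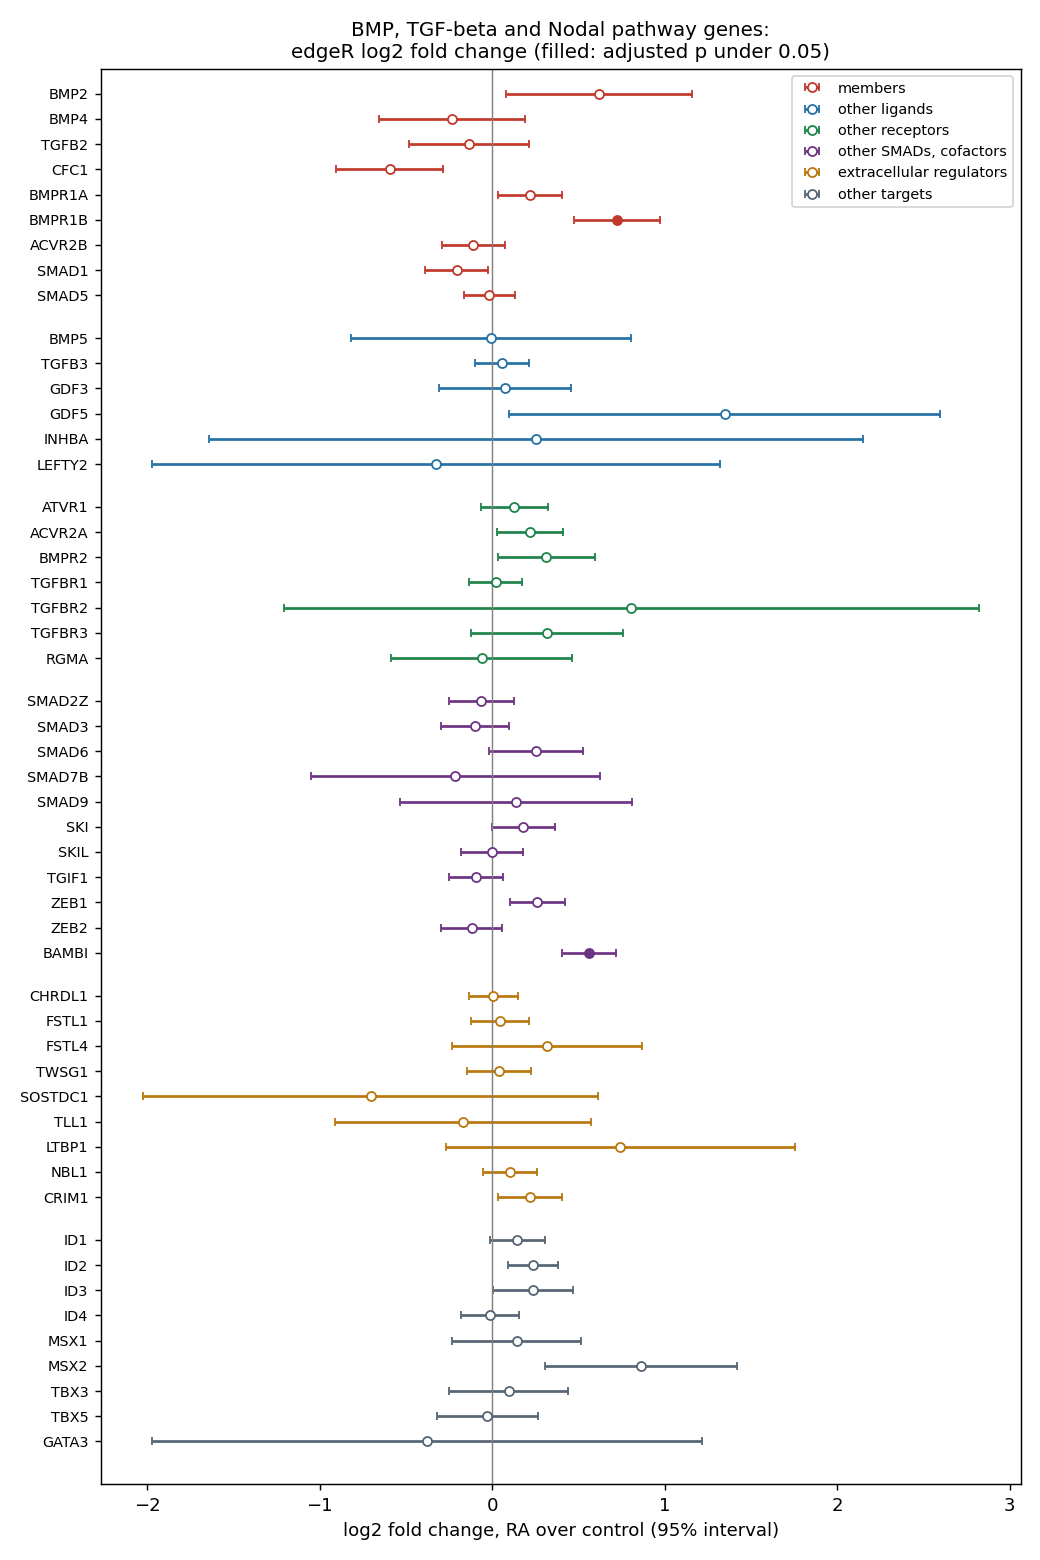
Log2 fold change of RA over control (x axis) with its 95% interval for the 9 members and for the other pathway and target genes that passed the filter, from the edgeR fit with the pair block; filled points have an adjusted p under 0.05. BMPR1B (0.72) and BAMBI (0.56) are the filled points, and GDF5 and other low genes have wide intervals.

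Genes known as transcriptional targets of BMP or TGF-beta signalling formed a further list of 17, of which 12 were tested. BAMBI, which is on both lists, rose, and 0 fell, where 0.952% of all genes tested were called higher. At an unadjusted p under 0.05 there were 4 higher and 0 lower, against 5.73% and 3.15% of all genes, and the median log2 fold change of the 12 was 0.14. ID2, an inhibitor of bHLH transcription factors, had 651, 662 and 758 CPM in the RA libraries of pairs 1, 3 and 4, against 592, 572 and 591 CPM in the control libraries. The groups did not overlap, with a log2 fold change of 0.24 (SE 0.07, edgeR adjusted p = 0.174). ID3, of the same family, had 48.5, 44.6 and 75.2 CPM with RA, against 40.4, 41.9 and 59.0 CPM in controls. It was higher in 3 of 3 pairs by a log2 fold change of 0.24 (SE 0.11, edgeR adjusted p = 0.558). MSX2, a homeobox repressor, had 8.03, 13.9 and 9.76 CPM with RA, against 5.98, 5.48 and 5.56 CPM in controls. Its log2 fold change was 0.86 with a 95% interval of 0.30 to 1.42 (SE 0.26, edgeR adjusted p = 0.202), and its groups did not overlap. The dorsal retinal factor TBX5 had a log2 fold change of -0.03 with a 95% interval of -0.32 to 0.26.

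**Figure D4:**
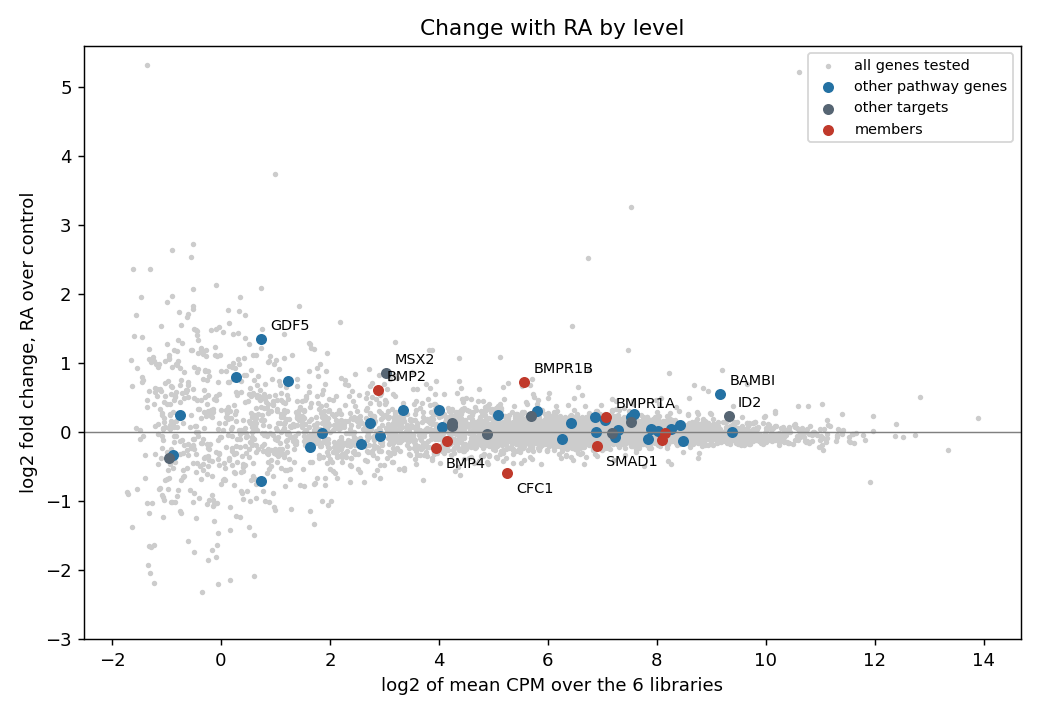
Log2 fold change of RA over control (y axis) against the log2 of mean CPM over the 6 libraries (x axis) for the 5041 genes tested (grey), the 9 members (red), other pathway genes (blue) and other targets (dark grey). BMPR1B and BAMBI lie above, and CFC1 below, most genes of like level, whereas GDF5 lies in the low range where fold changes scatter widely.

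The embryo pairs differed in several of these genes beyond the treatment. A test of the pair terms in the same fit gave an edgeR adjusted p under 0.05 for 3 of 9 members, against 13.6% of all genes tested. These were BMP4 (edgeR adjusted p = 0.00488), CFC1 (0.00105) and BMPR1B (0.00822). BMP4 was lowest in both libraries of pair 4, CFC1 was highest in both libraries of pair 1, and BMPR1B was higher in pair 4 than in the other pairs within each group. In pair 4 BMP4 was lower than in the other pairs by 1.21 on the log2 scale. In the same pair the targets ID1, ID3, SMAD6 and TBX5 were higher than in the other pairs, by log2 differences of 0.72, 0.61, 0.75 and 0.57. ID4, TBX3 and GATA3 were higher there by 0.45, 0.52 and 0.68, GATA3 on only 8 to 22 counts per library. The pair terms of TBX3 and GATA3 did not pass an edgeR adjusted p of 0.05 (0.0798 and 0.732). BAMBI and ID2 were higher in pair 4 by 0.30 and 0.12, but their 2 highest libraries were not both of that pair. MSX2 and SMAD7B did not follow, with differences of -0.08 and -0.06. Of the 12 targets tested, 7 had their 2 highest libraries of the 6 in pair 4, against 13.6% of all genes tested, whereas MSX1 had its 2 lowest there, as BMP4 did. The pattern was noticed after the values were seen, and the targets are not independent of each other. The labels also give the material behind each library. The RA libraries of pairs 1, 3 and 4 came from 98000, 161000 and 200000 sorted cells with 106.7, 147.4 and 132 ng of total RNA, against 57000, 192000 and 200000 cells with 52.8, 207.9 and 173.8 ng for the control libraries. Pair 1 was lowest on both measures in each group, and the part of this in the differences between pairs was not tested.

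The genes whose levels over the 6 libraries were most like those of a member were found among tested genes averaging 50 counts or more per library, for members with an unadjusted p under 0.05. Likeness was the root mean square difference of log2 CPM after centring each gene on its mean, and smaller is more alike. The likeness is a description that follows treatment and pair together. For BMPR1B, whose log2 CPM ranged over 1.46, the nearest were EPHB2 (0.104), PMEPA1 (0.107) and NGFR (0.113). EPHB2 is a receptor for ephrin-B ligands, PMEPA1 a membrane protein that binds SMADs, and NGFR the p75 neurotrophin receptor. None of these 3 was on the pathway or target list, so the counts given for those lists leave them out. PMEPA1 had 338, 282 and 554 CPM in the RA libraries of pairs 1, 3 and 4, against 197, 169 and 263 CPM in the control libraries. The log2 fold changes were 0.57 for EPHB2, 0.87 for PMEPA1 and 0.77 for NGFR, with edgeR adjusted p-values of 0.00986, 1.59e-05 and 0.0012. These 3 were chosen for likeness to a gene that rose, so a rise with RA was part of the choice. Their p-values are therefore not independent evidence. Without the pair block none of the 3 was called (edgeR adjusted p 1.00, 0.547 and 0.547), and EPHB2 was also not called without pair 3 (0.0875) or without pair 4 (0.0539). For BMP2, with a range of 1.18, they were ICOSLG (0.0784), CITED4 (0.117) and CD14 (0.123). For BMPR1A, with a range of 0.36, they were SMYD4 (0.0426), MIR1787 (0.047) and ABLIM1 (0.0521), and for SMAD1, with a range of 0.48, COMMD5 (0.0483), SDHB (0.0556) and H3F3C (0.0564). Of the genes nearest to BMP2, BMPR1A and SMAD1, CITED4 was called (edgeR adjusted p = 0.00386) and the others were not. CITED4 was not called without the pair block or without pair 3 (edgeR adjusted p = 0.0665 without pair 3).

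**Figure D5:**
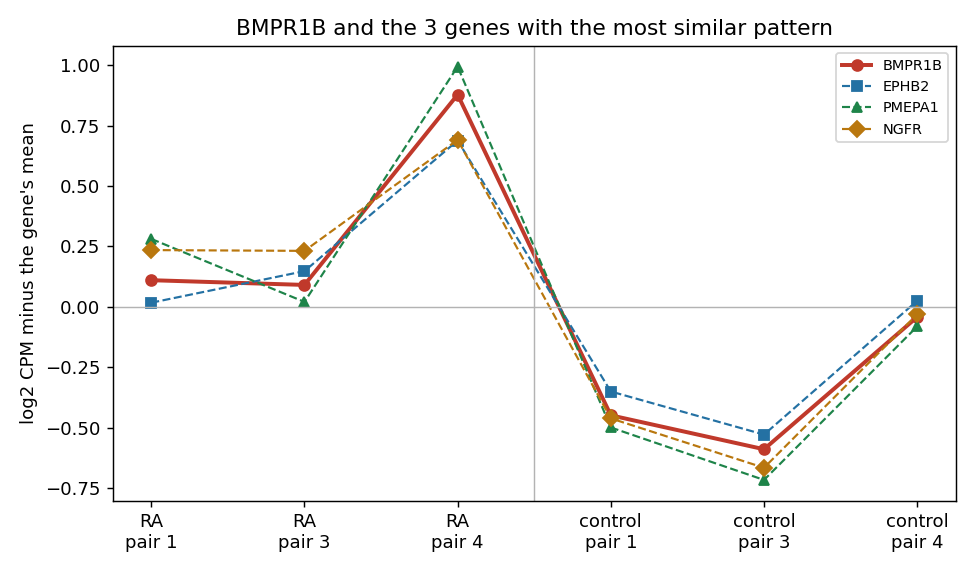
Log2 CPM minus the gene's own mean (y axis) in the 3 RA and 3 control libraries (x axis) for BMPR1B (solid red) and the 3 genes with the smallest root mean square difference from it (dashed). All 4 genes are highest in the RA library of pair 4 and lowest in the control library of pair 3.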

How the data were processed

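RNA was measured in 3 RA and 3 control libraries, sequenced as single reads of 100 bases from amplified cDNA, per the labels' protocols. The submitters' processing notes list STAR 2.5.3a, HTSeq 0.6p1, edgeR 3.18.1 and the build galGal5, with no role or order. The authors deposited raw counts per gene symbol. They also deposited a CPM table (entered as a score, since it is scaled by a factor per library) of the 4752 genes over 1 CPM in at least 3 libraries, and a table of log2 fold changes with p-values. No coordinates or sequences are given, since the reference table here is of another build.

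The members and lists were chosen with earlier results of these data known. The main test was edgeR's quasi-likelihood test (edgeR 4.0.16, R 4.3.3) on the deposited counts. The filter (filterByExpr) used a minimum count of 10 for 3 libraries and a minimum total of 15, the scaling was TMM, and the pair was a block. The authors also call their comparison paired. Standard errors are the log2 fold change divided by the square root of F, and 95% intervals use the moderated degrees of freedom. Log2 CPM per library had 2 counts added. Pairing follows from the design (opposite eyes of the same embryos), and deviations from the group means correlated by 0.289, 0.248 and 0.338 within pairs 1, 3 and 4. Replicate libraries differed by far more than sampling noise (smallest chi-square per degree of freedom 49.5). Named genes are the members, the list genes with an unadjusted p under 0.05, the list gene of each role with the highest mean CPM, the 3 nearest genes of a member (those of CFC1 are not reported here) and CYP26A1; TBX5, SMAD6, ZEB2, ID1, MSX1, NOG, CHRD, FST and GREM1 were added after their values were seen. Of the list genes, ACVR1 and SMAD2 were read from the rows ATVR1 and SMAD2Z, which RefSeq gives as synonyms. The fit was tested on simulated counts. Alternatives were no block, other scalings, other filters, limma-voom 3.58.1, DESeq2 1.42.0 and leaving out each pair. With the pair as a block, p-values set the difference between RA and control against a moderated spread over these pairs. With 2 residual degrees of freedom, the spread used for a gene draws on the other genes tested. It can be smaller or larger than the gene's own 3 pair values show. The labels do not say whether the pairs were cultured and sorted on separate occasions, so what that spread includes is not known. Whether counting used strand is not given in the sources used here.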

Additional observations from a re-analysis of the deposited data

How the results depend on the processing

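The number of genes called, 54, was 7 without the replicate block, 85 with no low-count filter and 85 with DESeq2, and 36 to 81 when 1 pair was left out. The number of members called, 1 (BMPR1B), was 0 without the replicate block. It was 2, with CFC1 added, under upper-quartile scaling, with no low-count filter, with limma-voom and with DESeq2, and 1 to 2 when 1 pair was left out, with CFC1 added without pair 3. The pathway list had 1 gene called and 0 without the block, and 1 in each fit that left out a pair. The target list had 1, with 0 without the block, 2 with DESeq2 (ID2 added) and 1 to 2 when 1 pair was left out, with ID2 added without pair 1. The adjusted p of BMPR1B ranged from 1.72e-05 to 1.00 over 11 alternatives, and it was called in 10 of them. CFC1 was called in 5 of 11. The named genes added after their values were seen were not followed through the alternatives. Among the other named genes, 4 small differences changed sign in a fit without a pair. With each pair left out in turn, ACVR2B ranged from -0.239 to 0.0083, SMAD5 from -0.0333 to 0.0042 and CHRDL1 from -0.0335 to 0.0588, each turning without pair 4. TGFBR1 ranged from -0.0303 to 0.0675, turning without pair 1. The cause was not tested. BMP2 and GDF5 rested on 118 and 9 counts in their lowest libraries, and leaving out a pair lowers the residual degrees of freedom from 2 to 1.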
